A study of Mus musculus with 16 samples.

Results

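Metallothioneins and genes that respond to glucocorticoids were described in mouse hippocampus on 16 whole-genome expression arrays. The set held 10 genes. They were the metallothioneins Mt1, Mt2 and Mt3, the corticosteroid receptors Nr3c1 and Nr3c2, and the glucocorticoid-responsive genes Fkbp5, Sgk1, Tsc22d3, Zbtb16 and Cdkn1a, out of 18193 genes that the platform annotation names from a probe set with 1 symbol. A probe set is a group of short probes read as 1 value, and every probe set whose only symbol was 1 of these 10 genes was taken. That gave 24 probe sets, of which 19 passed the filter on low values (a deposited value over 4 on the log2 scale on at least 4 arrays) and entered the tests. The other 5 were dim and are given as values only. The sources used here do not say which part of the transcript each probe set reads.

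All mice were 12-month-old males, and each array carried RNA from the hippocampus of 1 mouse. The AβPP-Antisense group held 4 SAMP8 mice given an antisense oligonucleotide against the amyloid-β precursor protein (AβPP) message by vein. The Random-Antisense group held 4 SAMP8 mice given an oligonucleotide of random sequence by the same route. The untreated SAMP8 group held 4 mice of this senescence-accelerated line, which has memory deficits at this age. The untreated Control group held 4 mice of a 50% backcross of SAMP8 with CD-1, without such deficits, so that Control mice still carry SAMP8 alleles. Random-Antisense 1 has a treatment label that says no treatment, against its title, and it was kept with the group of its title. The study set these 4 groups side by side in a one-way layout. Doses, and the time between the last injection and death, were not stated in those sources.

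Metallothioneins are small cysteine-rich proteins that bind zinc and copper. Mt1 and Mt2 are made in many tissues, in brain mostly by astrocytes and cells of vessels and meninges, and are induced by metals through the transcription factor MTF1 and by glucocorticoids, while Mt3 is the brain-enriched form and is little induced by metals. Glucocorticoids act in hippocampus through a high-affinity mineralocorticoid receptor (Nr3c2) and a lower-affinity glucocorticoid receptor (Nr3c1). The ligand-bound glucocorticoid receptor enters the nucleus and raises a well-known group of targets, among them Fkbp5, whose protein lowers the receptor's affinity for hormone, Sgk1, Tsc22d3, Zbtb16, Mt1 and Mt2.

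On the arrays, the labelled tissue showed 10 of 12 neuron markers over the filter, with mean levels of 11.00 to 11.82 log2 in AβPP-Antisense, 11.75 to 11.82 in Random-Antisense, 11.55 to 11.69 in untreated SAMP8 and 11.00 to 11.78 in Control. All 10 markers of thalamus, a neighbouring region, also passed it, with mean levels of 7.40 to 9.91 log2 in AβPP-Antisense and 8.85 to 10.22 over the other 3 groups. AβPP-Antisense 4 and Control 4 stood apart. Their median correlations with the other 15 arrays were 0.968 and 0.957 in that order, against 0.987 to 0.996 for the other 14. The difference between the 3′ and 5′ β-actin probe sets, a measure of RNA integrity that grows as RNA is shortened, was 3.89 log2 on AβPP-Antisense 4, 1.21 to 1.60 on the other AβPP-Antisense arrays, and 0.84 to 1.36 in the other 3 groups. A marker score is the mean, over the tested genes of a list, of the deviation from the 16-array mean in log2 units. The leukocyte score was 4.63 on Control 4 and at most 0.29 on every other array. Without both arrays, 20 of the 57 member differences in the 3 comparisons that use either of them stayed within 1.5 times of the value with all arrays, 24 moved by more and 13 changed sign, and none of those 13 passed the threshold in either fit. Below, differences that moved by more than 1.5 times or changed sign are given with both values.

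Of the 10 genes, 8 had 1 or more promoter windows in the RefSeq table used (16 windows of 300 bases, GRCm38.p6, from 250 bases before a transcript start to 50 bases from the start on), and Zbtb16 and Nr3c1 had none. The metallothionein windows are shown because the metal response element, the site of MTF1, is the best known element of these genes. Its core was searched as TGCACNC or TGCGCNC on both strands, and the capitals below mark the matches. The Sgk1 window is shown because it holds a full palindrome, AGAACA and TGTTCT with 3 bases between them, a strong form of the glucocorticoid response element, which is marked there in capitals. All 4 are written 5′ to 3′ on the plus strand, on which these genes lie.
Mt1, chr8:94178839-94179138: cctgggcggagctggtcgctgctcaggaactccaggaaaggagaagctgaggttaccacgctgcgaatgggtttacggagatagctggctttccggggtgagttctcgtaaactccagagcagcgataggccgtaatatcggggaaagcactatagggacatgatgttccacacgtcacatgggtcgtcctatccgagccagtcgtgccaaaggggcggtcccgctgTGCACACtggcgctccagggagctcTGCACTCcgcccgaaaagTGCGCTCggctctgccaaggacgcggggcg
Mt2, chr8:94172368-94172667: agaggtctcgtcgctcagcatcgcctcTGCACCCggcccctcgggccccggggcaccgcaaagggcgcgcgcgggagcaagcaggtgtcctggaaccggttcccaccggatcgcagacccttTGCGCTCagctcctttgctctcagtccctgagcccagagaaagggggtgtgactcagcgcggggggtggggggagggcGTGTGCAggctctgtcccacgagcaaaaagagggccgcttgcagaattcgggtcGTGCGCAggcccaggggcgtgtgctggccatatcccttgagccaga
Mt3, chr8:94152357-94152656: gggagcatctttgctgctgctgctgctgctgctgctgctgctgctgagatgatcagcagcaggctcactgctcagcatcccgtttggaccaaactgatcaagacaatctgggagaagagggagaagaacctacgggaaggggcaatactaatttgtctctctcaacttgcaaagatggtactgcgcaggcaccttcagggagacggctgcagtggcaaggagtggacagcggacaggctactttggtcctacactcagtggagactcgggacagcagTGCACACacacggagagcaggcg
Sgk1, chr10:21993640-21993939: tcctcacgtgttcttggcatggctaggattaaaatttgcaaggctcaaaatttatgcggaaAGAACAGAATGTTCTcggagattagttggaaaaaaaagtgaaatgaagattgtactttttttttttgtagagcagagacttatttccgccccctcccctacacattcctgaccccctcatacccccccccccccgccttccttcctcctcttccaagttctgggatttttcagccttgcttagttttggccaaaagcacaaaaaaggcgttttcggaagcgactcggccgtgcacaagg

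The 3 metallothionein genes lie within 1 stretch of chromosome 8 (GRCm38.p6). Mt3 is annotated from 94152607 to 94154148, Mt2 from 94172618 to 94173567 and Mt1 from 94178883 to 94180327. The Mt1 window surrounds a transcript start inside the annotated gene. Counting the start base as 0, the Mt1 window held 3 matches to the metal response core, at −23, 2 and 20. The Mt2 window held 4, at −223 and −128 on the plus strand and at −50 and 4 on the minus strand. The Mt3 window held 1 match, at 27. Of 32851 windows in the table, 25.7% held at least 1 match, 1.97% at least 3 and 0.517% at least 4, so the single match of Mt3 was a common count and the counts of Mt1 and Mt2 were rare. The palindrome was found in 3 of the 32851 windows (0.00913%), of which the Sgk1 window was 1, with the match from −189 to −175. No window of Mt1, Mt2, Mt3, Fkbp5, Tsc22d3, Nr3c2 or Cdkn1a held the palindrome, which says only that these letters were not in these windows. A match describes the sequence and not binding.

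In no comparison did any of the 19 tested probe sets pass an adjusted p of 0.05 (limma, Benjamini-Hochberg over all 23905 tested probe sets). The comparisons differed in how many probe sets they called in all. AβPP-Antisense against Random-Antisense called 20 of 23905 (0.0837%), AβPP-Antisense against untreated SAMP8 called 69 (0.289%), untreated SAMP8 against Control called 86 (0.36%), and Random-Antisense against untreated SAMP8 called 0 (0%), with 267 at an unadjusted p under 0.05. The moderated F test over the 4 groups called 203 (0.849%), and at an unadjusted F p under 0.05 4 of 19 members were found, against 14% of all tested. The members' count of 0 was therefore near the background in each comparison. At an unadjusted p under 0.05, 5 of 19 member probe sets were found in AβPP-Antisense against Random-Antisense (12.3% of all tested), 5 in AβPP-Antisense against untreated SAMP8 (14.7%), 1 in Random-Antisense against untreated SAMP8 (1.12%) and 0 in untreated SAMP8 against Control (4.38%). Most of the 5 in each AβPP-Antisense comparison were probe sets of the 1 gene Nr3c1. With 1 probe set a gene, 3 of 10 members were found against Random-Antisense, beside 1013 of 11465 genes. Against untreated SAMP8 it was 1 of 10, beside 1146 of 11465. The comparisons share arrays, so their counts are not independent. The Fkbp5 probe set 1448231_at is in the F count and in that of AβPP-Antisense against untreated SAMP8. It passed the filter only through Control and untreated SAMP8 arrays, where it read higher, so its place in those counts is a description.

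**Figure D1:**
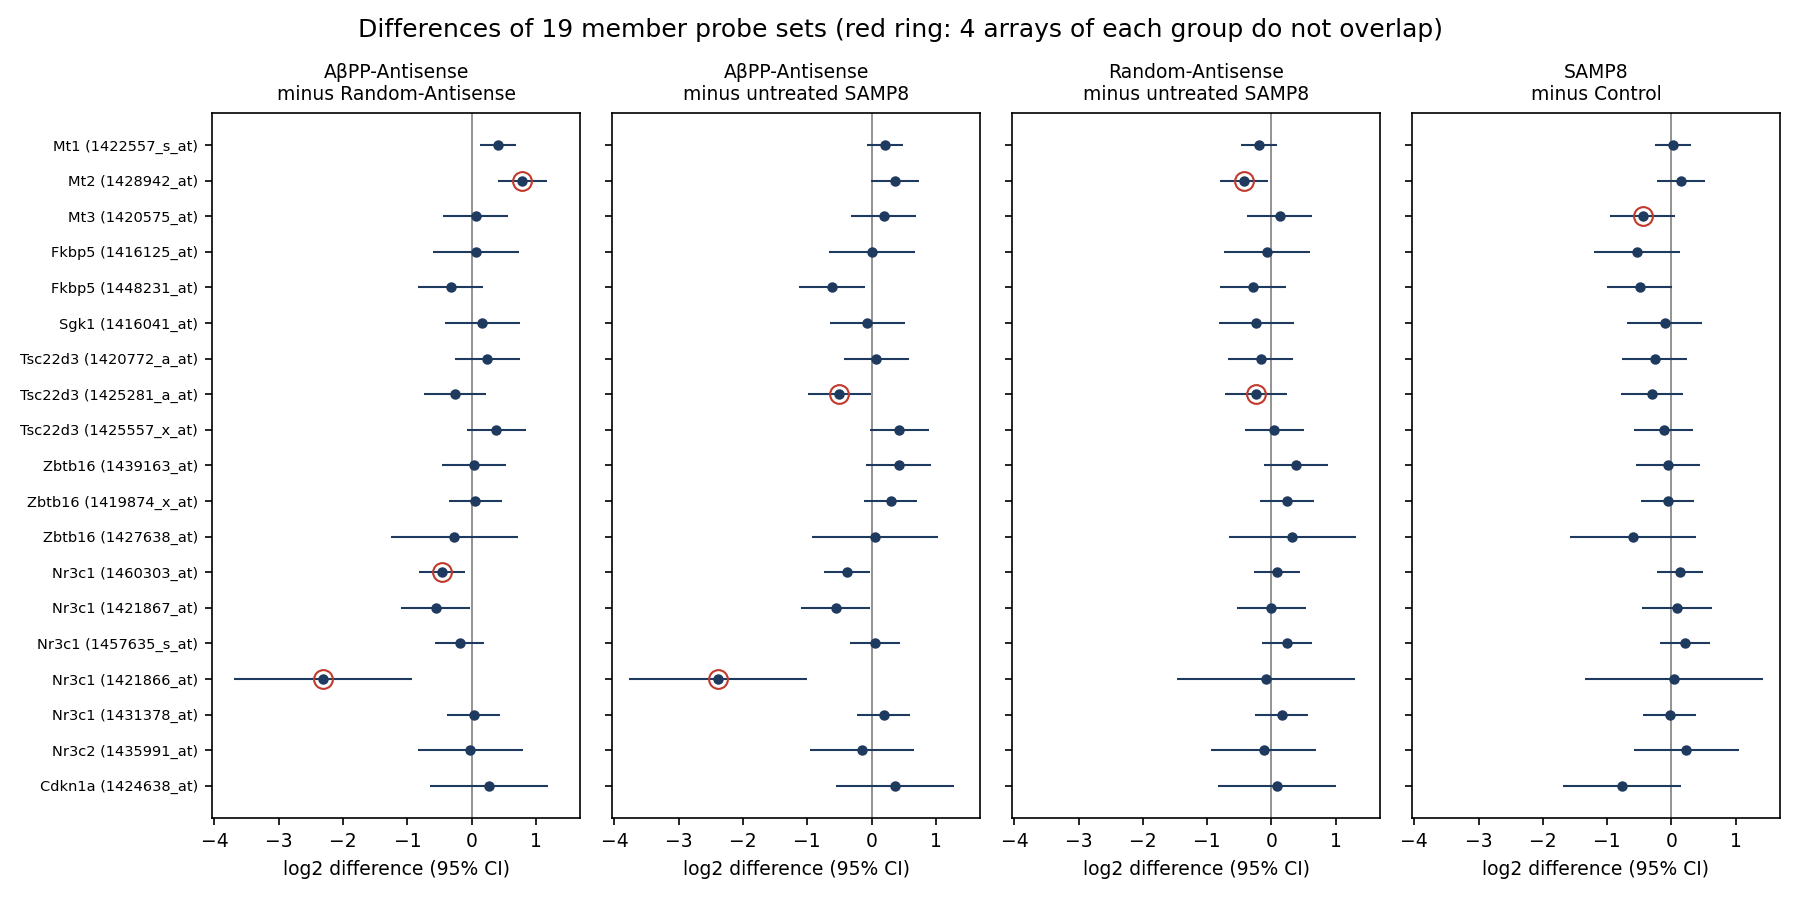
Differences of the 19 tested probe sets in log2 units, with 95% confidence intervals from the limma fit, in 4 comparisons of 4 arrays each. Red rings mark probe sets whose groups do not overlap; the Mt2 ring lies at 0.79 for AβPP-Antisense minus Random-Antisense, and the Nr3c1 interval centred on −2.31 is the longest of that comparison.

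Mt2, the metal-induced and glucocorticoid-induced form, was the member with the smallest p in the comparison of the oligonucleotides. Its probe set (1428942_at) read 12.04, 12.48, 12.36 and 12.00 log2 on the 4 AβPP-Antisense arrays. It read 11.37, 11.44, 11.55 and 11.36 in Random-Antisense. All 4 AβPP-Antisense arrays lay above all 4 Random-Antisense arrays, and in this comparison the groups failed to overlap, in either direction, for 7.58% of all tested probe sets. The same probe set read 11.67, 11.76, 11.96 and 12.05 in untreated SAMP8. It read 11.19, 11.68, 11.88 and 12.10 in Control. Every Random-Antisense array also lay below every untreated SAMP8 array (8.1% of all tested probe sets had no overlap there, in either direction), and the Control mice spanned most of the range. Group means were 12.22 ± 0.23 log2 in AβPP-Antisense, 11.43 ± 0.09 in Random-Antisense, 11.86 ± 0.18 in untreated SAMP8 and 11.71 ± 0.39 in Control (SD, n = 4 each).

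The Mt2 difference of AβPP-Antisense minus Random-Antisense was 0.79 log2 (SE 0.18, 95% confidence interval 0.41 to 1.17), with an unadjusted p of 0.000464 and an adjusted p of 0.114 in limma. The exact permutation test over the 8 arrays gave its smallest possible two-sided p, 0.0286. AβPP-Antisense minus untreated SAMP8 was 0.36 (SE 0.18, adjusted p 0.359 in limma), with overlapping groups. Random-Antisense minus untreated SAMP8 was −0.43 (SE 0.18, unadjusted p 0.0283, adjusted p 1 in limma). The distance between the oligonucleotide groups was thus made of a mean above untreated SAMP8 in one and a mean below it in the other, neither past the threshold. Untreated SAMP8 minus Control was 0.15 (SE 0.18, adjusted p 0.999 in limma), and 0.28 without both of the arrays that stood apart. From high to low the means ran AβPP-Antisense, untreated SAMP8, Control and Random-Antisense. Neither AβPP-Antisense and untreated SAMP8 nor untreated SAMP8 and Control were separated by an adjusted p of 0.05. Control and Random-Antisense were not compared with each other. Without AβPP-Antisense 3 the difference between the oligonucleotides was 0.74 with an adjusted p of 0.0499 in limma, in a fit that called 896 probe sets (3.75% of all tested). Without AβPP-Antisense 4 and Control 4 it was 0.86 with an adjusted p of 0.0293, in a fit that called 199 (0.832%). Over the 27 alternatives run for it the adjusted p lay between 0.0293 and 0.359 and the difference between 0.71 and 0.92.

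Mt1 was read by 1422557_s_at. The suffix s marks probes that can match more than 1 transcript, and GEO's annotation names Mt1 alone. It read 13.01, 13.60, 13.39 and 13.42 log2 in AβPP-Antisense. It read 13.07, 12.99, 12.93 and 12.80 in Random-Antisense. AβPP-Antisense 1 lay within the Random-Antisense range and the other 3 lay above it. Untreated SAMP8 read 13.13, 13.02, 13.24 and 13.19, and Control read 12.91, 13.28, 13.18 and 13.11. AβPP-Antisense minus Random-Antisense was 0.41 (SE 0.13, unadjusted p 0.00702, adjusted p 0.244 in limma), and Random-Antisense minus untreated SAMP8 was −0.20 (SE 0.13, adjusted p 1 in limma). The Mt1 means kept the order of Mt2: 13.35 ± 0.25 in AβPP-Antisense, 12.95 ± 0.11 in Random-Antisense, 13.14 ± 0.10 in untreated SAMP8 and 13.12 ± 0.16 in Control (SD, n = 4 each). The second Mt1 probe set (1451612_at) was dim on all arrays, from 2.78 to 3.94 log2, and its highest array was AβPP-Antisense 2, which was also the highest array for Mt1 and Mt2 above.

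Mt3, the brain-enriched metallothionein, differed from the other 2 in the order of its group means, with Control highest and untreated SAMP8 lowest. Its probe set (1420575_at) read 11.46, 12.58, 12.28 and 12.96 log2 in AβPP-Antisense. It read 12.31, 12.42, 12.02 and 12.28 in Random-Antisense. The AβPP-Antisense arrays held both the lowest and the highest of the 16 values. It read 11.94, 12.13, 12.19 and 12.26 in untreated SAMP8. It read 12.84, 12.62, 12.38 and 12.47 in Control. All 4 untreated SAMP8 arrays lay below all 4 Control arrays, and Mt3 was the only 1 of 19 members without overlap in that comparison, against 4.81% of all tested probe sets. The difference was −0.45 log2 (SE 0.24, 95% confidence interval −0.96 to 0.06, adjusted p 0.999 in limma), and over the 27 alternatives run it lay between −0.52 and −0.36. AβPP-Antisense minus Random-Antisense was 0.06 (SE 0.24, 95% confidence interval −0.45 to 0.57), an interval that includes a difference as large as that of Mt1, and without AβPP-Antisense 4 and Control 4 it was −0.15.

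**Figure D2:**
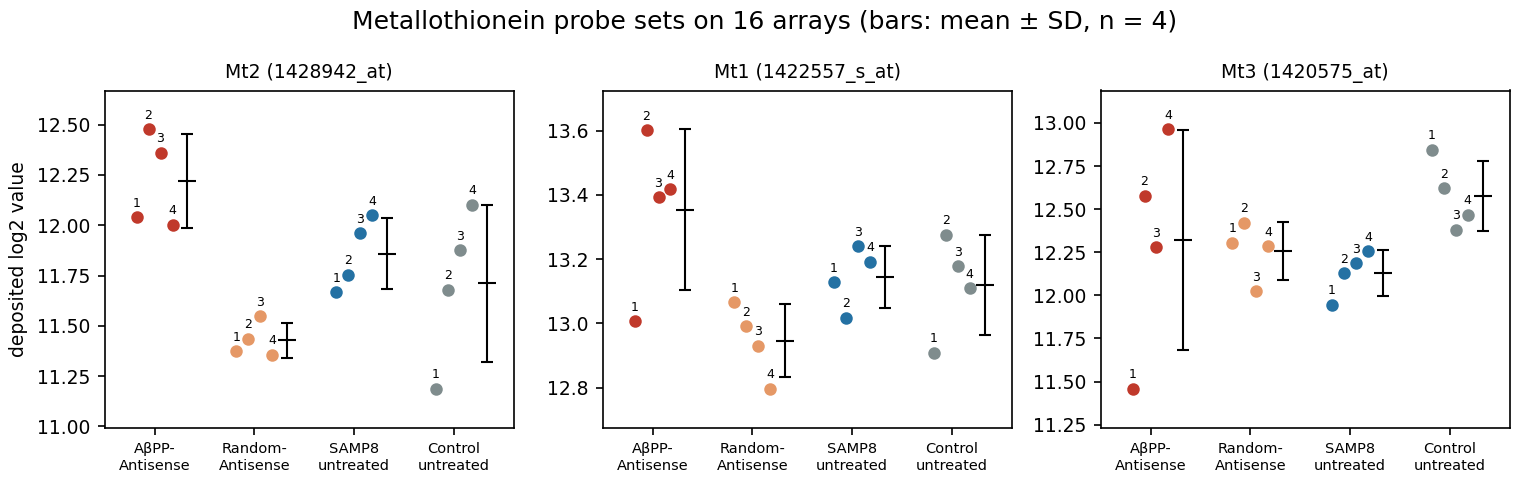
Deposited log2 values of Mt2, Mt1 and Mt3 on each array, by group, with the replicate number above each point and bars for mean ± SD (n = 4). The 4 AβPP-Antisense values of Mt2 (12.00 to 12.48) lie above the 4 Random-Antisense values (11.36 to 11.55), and the 4 untreated SAMP8 values of Mt3 (11.94 to 12.26) lie below the 4 Control values (12.38 to 12.84).

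Mt1 and Mt2 are made by cells of several types, and in tissue RNA fewer cells of a type and less RNA per cell cannot be told apart. Of the 16 astrocyte markers, 11 were higher in AβPP-Antisense than in Random-Antisense, with a median of 0.07 log2, and mean levels were 11.06 to 11.96 in AβPP-Antisense and 11.30 to 11.44 in Random-Antisense. AβPP-Antisense 2, the highest array for Mt1 and Mt2, had the highest astrocyte score (0.60). Of 12 tested markers of endothelial and mural cells, 11 were higher in AβPP-Antisense, with a median of 0.34 log2 and mean levels of 7.05 to 7.79 against 6.82 to 7.16 (score difference 0.42, exact permutation p 0.0857). Their defining genes Pecam1, Ly6c1, Tie1 and Cdh5 were under the filter in all groups. Of 11 tested microglia markers 9 were higher, with a median of 0.42 and mean levels of 8.21 to 8.91 against 8.10 to 8.43. The microglia score differed by 0.33 (exact permutation p 0.114), and by 0.49 without AβPP-Antisense 4 and Control 4 (exact permutation p 0.0286, the smallest possible). Of 7 tested leukocyte markers 6 were higher, with a median of 0.44 and mean levels of 7.74 to 8.11 against 7.02 to 7.54 (score difference 0.56, exact permutation p 0.0286). Of 7 tested markers of meningeal fibroblasts 1 was higher, with a median of −0.58 and mean levels of 5.36 to 7.34 against 6.53 to 6.80. Both tested blood markers were higher, with mean levels of 4.44 to 8.89 against 3.88 to 4.20 (exact permutation p 0.0286). The 10 tested choroid plexus markers were all lower, with a median of −2.30 and mean levels of 5.70 to 7.21 against 7.57 to 8.67 (exact permutation p 0.0286). Of the neuron markers 9 of 10 were lower (median −0.30, exact permutation p 0.314), of the thalamus markers 10 of 10 (median −0.57, exact permutation p 0.4), and of 12 tested oligodendrocyte markers 9 (median −0.21, exact permutation p 0.429). These p-values are not adjusted for the number of lists. Without AβPP-Antisense 4 and Control 4 the astrocyte score difference was 0.20 in place of 0.07, and that of thalamus −1.07 in place of −0.62. The part of these cells in the Mt1 and Mt2 values was not tested.

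Nr3c1, the glucocorticoid receptor, had 6 probe sets, which did not give a single answer. The brightest, 1460303_at, read 11.03, 10.66, 10.76 and 10.31 log2 in AβPP-Antisense. It read 11.19, 11.23, 11.07 and 11.12 in Random-Antisense. Every AβPP-Antisense value was under the lowest Random-Antisense value. Untreated SAMP8 read 11.11, 11.09, 11.16 and 10.92, and Control read 11.16, 11.02, 11.10 and 10.44. AβPP-Antisense minus Random-Antisense was −0.46 (SE 0.17, unadjusted p 0.0145, adjusted p 0.304 in limma), and AβPP-Antisense minus untreated SAMP8 was −0.38 (SE 0.17, adjusted p 0.317 in limma). The lowest Control value was that of Control 4, which lay between the 2 lowest AβPP-Antisense arrays.

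The probe set 1421866_at gave the longest distance of any member. It read 5.97, 5.99, 7.69 and 2.94 log2 in AβPP-Antisense. It read 8.03, 7.98, 7.89 and 7.92 in Random-Antisense. It read 8.05, 7.83, 8.37 and 7.89 in untreated SAMP8. The Control mice read 8.34, 7.93, 7.94 and 7.77. The 4 AβPP-Antisense arrays were the 4 lowest of the 16, and they were spread over more than 4 log2 units while the other 12 stayed within 1. The difference from Random-Antisense was −2.31 (SE 0.65, unadjusted p 0.00295, adjusted p 0.206 in limma) and from untreated SAMP8 −2.39 (SE 0.65, unadjusted p 0.00229, adjusted p 0.134 in limma). Within AβPP-Antisense the highest array for this probe set, array 3, had the smallest β-actin 3′ to 5′ difference (1.21 log2), arrays 1 and 2 had 1.60 each, and array 4, the lowest, had 3.89. No array of the other groups had a β-actin difference over 1.36. For arrays 1, 2 and 4, RNA integrity and group therefore cannot be told apart, and the cause was not tested.

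Leaving out single arrays moved these values. Without AβPP-Antisense 3, the array nearest to the other groups, the Nr3c1 difference from Random-Antisense was −2.99 with an adjusted p of 0.00901 in limma, and that from untreated SAMP8 was −3.07 with an adjusted p of 0.00581, in fits that called 896 (3.75%) and 1286 (5.38%) of all probe sets. Without AβPP-Antisense 4 the difference from Random-Antisense was −1.40 (adjusted p 0.122 in limma). Without AβPP-Antisense 4 and Control 4 the difference from untreated SAMP8 was −1.48 with an adjusted p of 0.0437 in limma, where 401 probe sets (1.68%) were called. With the β-actin difference as a covariate, the difference from Random-Antisense was −1.10 with an adjusted p of 0.205. Over 27 alternatives the adjusted p lay between 0.00901 and 0.574 and the sign stayed negative.

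The other Nr3c1 probe sets lay closer together. 1421867_at read 10.71, 10.39, 10.58 and 9.15 log2 in AβPP-Antisense against 10.81, 10.75, 10.69 and 10.81 in Random-Antisense, a difference of −0.56 (SE 0.25, adjusted p 0.392 in limma) in which AβPP-Antisense 4 stood lowest. Without AβPP-Antisense 4 and Control 4 it was −0.21 (adjusted p 0.347 in limma). 1457635_s_at read 10.12, 9.75, 10.06 and 10.72 in AβPP-Antisense against 10.26, 10.28, 10.40 and 10.45 in Random-Antisense, and here AβPP-Antisense 4 stood highest (difference −0.19, SE 0.18, adjusted p 0.715 in limma, and −0.37 without both arrays). The probe sets of 1 gene thus placed the same array at opposite ends. 1431378_at was near the filter, at 3.78, 3.78, 3.86 and 4.39 in AβPP-Antisense against 3.95, 3.78, 4.06 and 3.88 in Random-Antisense, with a difference of 0.03 (SE 0.19) that was −0.11 without both arrays. The untested 1453860_s_at read 2.30 to 3.30 in AβPP-Antisense, 3.30 to 3.56 in Random-Antisense, 3.33 to 3.71 in untreated SAMP8 and 3.62 to 4.08 in Control, all dim. The mean of the tested Nr3c1 probe sets differed by −0.70 between AβPP-Antisense and Random-Antisense, with an adjusted p of 0.157 in limma. In untreated SAMP8 against Control the 5 tested probe sets differed by −0.03 to 0.21, and by −0.19 to 0.19 without both arrays.

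Nr3c2, the mineralocorticoid receptor, had 1 probe set (1435991_at). It read 10.76, 8.85, 10.93 and 9.09 log2 in AβPP-Antisense. It read 9.87, 10.11, 10.15 and 9.60 in Random-Antisense. Untreated SAMP8 mice had 9.92, 10.20, 10.07 and 10.04, and Control mice had 10.13, 9.87, 9.92 and 9.38. AβPP-Antisense arrays 1 and 3 lay above every other array and arrays 2 and 4 below every other array, while the group mean (9.91 ± 1.09 log2, SD, n = 4) was near that of Random-Antisense (9.93 ± 0.25, SD, n = 4). The difference was −0.02 (SE 0.38, 95% confidence interval −0.84 to 0.79), an interval that includes differences of either sign, and without AβPP-Antisense 4 and Control 4 it was 0.25. Untreated SAMP8 minus Control was 0.23 (SE 0.38, adjusted p 0.999 in limma), and 0.08 without both. The thalamus marker score ran the other way within AβPP-Antisense, at −1.90 and −1.94 on arrays 1 and 3 and at 0.14 and 0.56 on arrays 2 and 4, and its part in the Nr3c2 values was not tested.

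**Figure D3:**
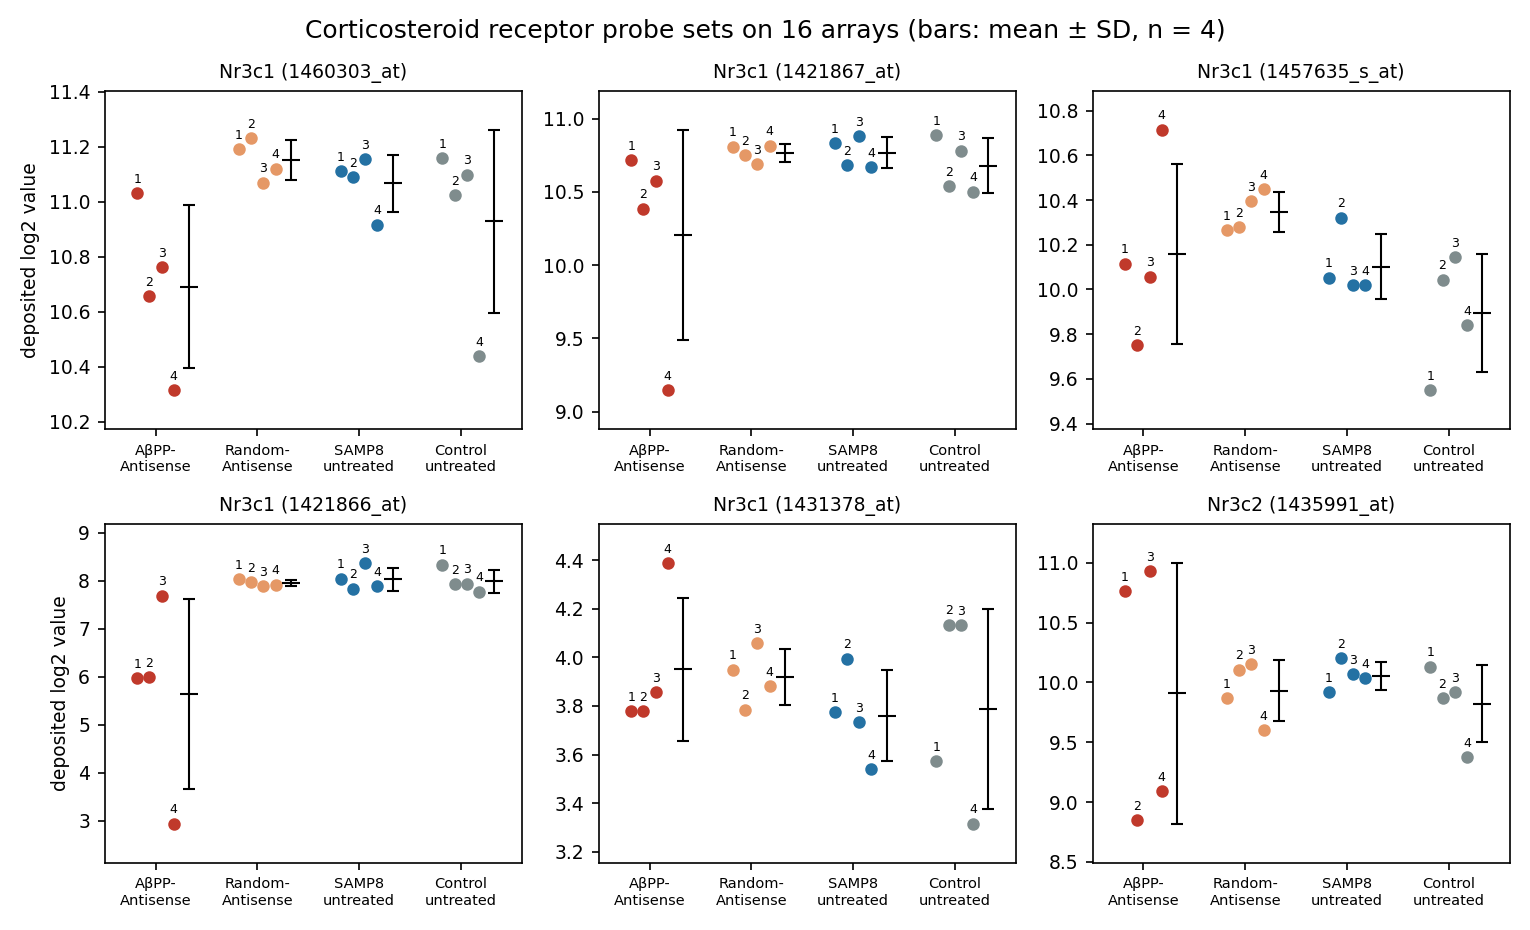
Deposited log2 values of 5 Nr3c1 probe sets and the Nr3c2 probe set on each array, by group, with replicate numbers and bars for mean ± SD (n = 4). For 1421866_at the 4 AβPP-Antisense values (2.94 to 7.69) lie below all others, and for Nr3c2 they split into 2 above and 2 below the remaining arrays.

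Fkbp5, the receptor co-chaperone often used as a readout of glucocorticoid action, varied more among AβPP-Antisense and Control mice than in the other 2 groups (SDs of 0.66, 0.22, 0.11 and 0.64 log2 in AβPP-Antisense, Random-Antisense, untreated SAMP8 and Control, n = 4 each). The main probe set, 1416125_at, read 9.09, 7.79, 9.25 and 8.89 log2 in AβPP-Antisense. It read 8.99, 8.71, 8.55 and 8.50 in Random-Antisense. It read 8.61, 8.75, 8.80 and 8.87 in untreated SAMP8. The Control mice read 8.80, 9.80, 8.69 and 9.88. Control 2 and Control 4 stood about 1 log2 unit above the other Control mice, and AβPP-Antisense 2 stood lowest of the 16. Untreated SAMP8 minus Control was −0.54 (SE 0.31, adjusted p 0.999 in limma) with overlapping groups. That Fkbp5 difference was −0.34 without Control 4, −0.37 without Control 2 and −0.26 with array weights. AβPP-Antisense minus Random-Antisense was 0.07 (SE 0.31, 95% confidence interval −0.60 to 0.74), and 0.02 without both arrays.

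The second Fkbp5 probe set, 1448231_at, was near the filter. It read 3.30, 2.87, 3.91 and 2.99 in AβPP-Antisense, 3.71, 3.45, 3.68 and 3.53 in Random-Antisense. Untreated SAMP8 mice had 3.67, 3.69, 4.10 and 4.06, and Control mice had 4.26, 4.67, 3.78 and 4.80. It passed the filter through 5 arrays, 3 in Control and 2 in untreated SAMP8, so its differences from those groups are given as a description. The means were 3.27 ± 0.47 in AβPP-Antisense, 3.59 ± 0.12 in Random-Antisense, 3.88 ± 0.23 in untreated SAMP8 and 4.38 ± 0.46 in Control (SD, n = 4 each). AβPP-Antisense minus untreated SAMP8 was −0.62 (SE 0.24, adjusted p 0.255 in limma), and −0.83 with an adjusted p of 0.0413 without AβPP-Antisense 3. The bright probe set of the gene differed by 0.0006 (SE 0.31, and −0.04 without both arrays) in that comparison, so the 2 probe sets did not give the same result. The third, 1447736_at, was dim on all arrays (2.50 to 2.79).

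Sgk1, a kinase induced by glucocorticoids and mineralocorticoids, was read by 1416041_at. It read 12.25, 11.71, 12.09 and 12.21 log2 in AβPP-Antisense, 11.89, 11.73, 11.86 and 12.11 in Random-Antisense. The untreated SAMP8 values were 12.21, 12.29, 12.08 and 11.95, and the Control values were 11.56, 13.31, 11.99 and 12.09. Control 2 lay about 1 log2 unit above every other array, and the lowest of the 16 was another Control mouse. The difference of AβPP-Antisense minus Random-Antisense came to 0.17 (SE 0.27, adjusted p 0.844 in limma), and untreated SAMP8 minus Control was −0.11 (SE 0.27, adjusted p 0.999 in limma). The Sgk1 difference from Control was 0.25 without Control 2 and −0.33 without Control 1, so its sign turned with Control 2 left out.

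Tsc22d3, which codes for the glucocorticoid-induced leucine zipper, had 3 tested probe sets. The brightest, 1420772_a_at, read 10.34, 11.15, 10.39 and 11.07 log2 in AβPP-Antisense, 10.71, 10.42, 10.54 and 10.29 in Random-Antisense. The untreated SAMP8 values were 10.68, 10.67, 10.60 and 10.69, and the Control values were 10.97, 11.62, 10.69 and 10.40. The AβPP-Antisense mice formed a high pair (2 and 4) and a low pair (1 and 3). AβPP-Antisense minus Random-Antisense came to 0.25 (SE 0.24, adjusted p 0.714 in limma), and 0.13 without both arrays. For 1425281_a_at the values were 9.39, 9.95, 9.79 and 9.08 in AβPP-Antisense, 9.83, 9.82, 9.86 and 9.74 in Random-Antisense, against 9.97, 10.17, 9.99 and 10.09 in untreated SAMP8. Both treated groups lay wholly below untreated SAMP8, by −0.50 in AβPP-Antisense (SE 0.23, adjusted p 0.325 in limma) and by −0.24 in Random-Antisense (SE 0.23, adjusted p 1 in limma). Control read 10.34, 11.10, 10.06 and 9.91 with the same probe set. The dim 1425557_x_at, whose suffix x marks probes that can also bind other transcripts, read 4.67 to 5.79 in AβPP-Antisense and 4.65 to 4.76 in Random-Antisense. AβPP-Antisense 4 was lowest of the 16 on 1425281_a_at and highest on 1425557_x_at, so the probe sets again differed on that array. The untested 1444365_at lay between 1.78 and 1.89 on all arrays.

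Zbtb16, a zinc-finger repressor induced by glucocorticoids, had 3 tested probe sets. 1439163_at read 10.61, 9.41, 10.10 and 9.87 log2 in AβPP-Antisense, 9.72, 9.84, 10.04 and 10.23 in Random-Antisense. In untreated SAMP8 mice it read 9.60, 9.78, 9.15 and 9.77, and in Control mice 9.37, 10.05, 9.46 and 9.61. The oligonucleotide groups had means 0.04 apart (SE 0.23), and 0.08 without both arrays. Both means lay above untreated SAMP8, by 0.42 in AβPP-Antisense (SE 0.23, adjusted p 0.415 in limma) and by 0.38 in Random-Antisense (SE 0.23, adjusted p 1 in limma), with overlap in each case. 1419874_x_at gave 0.30 and 0.24 for the same differences (SE 0.19 each), the first of which was 0.15 without both arrays. 1427638_at was dimmer and read 6.22, 3.99, 5.46 and 3.85 in AβPP-Antisense, against 5.04 to 5.27 in Random-Antisense, 4.41 to 5.18 in untreated SAMP8 and 4.41 to 6.09 in Control. AβPP-Antisense 1 and 3 were high and 2 and 4 low on it, the same division as for Nr3c2.

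Cdkn1a, the cell cycle inhibitor p21, is a target of both p53 and the glucocorticoid receptor. Its probe set 1424638_at read 6.83, 6.60, 6.12 and 7.72 log2 in AβPP-Antisense, 6.59, 6.43, 6.71 and 6.44 in Random-Antisense. In untreated SAMP8 mice it read 6.57, 6.61, 6.39 and 6.27, and in Control mice 6.28, 8.40, 6.25 and 7.96. The arrays that stood high were Control 2, Control 4 and AβPP-Antisense 4, while the other 13 lay between 6.12 and 6.83. Untreated SAMP8 minus Control was −0.77 (SE 0.43, adjusted p 0.999 in limma), and −1.09 to −0.26 over the 27 alternatives run. It was −0.38 without Control 2 and −0.52 without Control 4. AβPP-Antisense minus Random-Antisense was 0.28 for Cdkn1a with all arrays and −0.02 without both. The untested 1421679_a_at read 1.67 to 2.06 and was highest on Control 4.

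**Figure D4:**
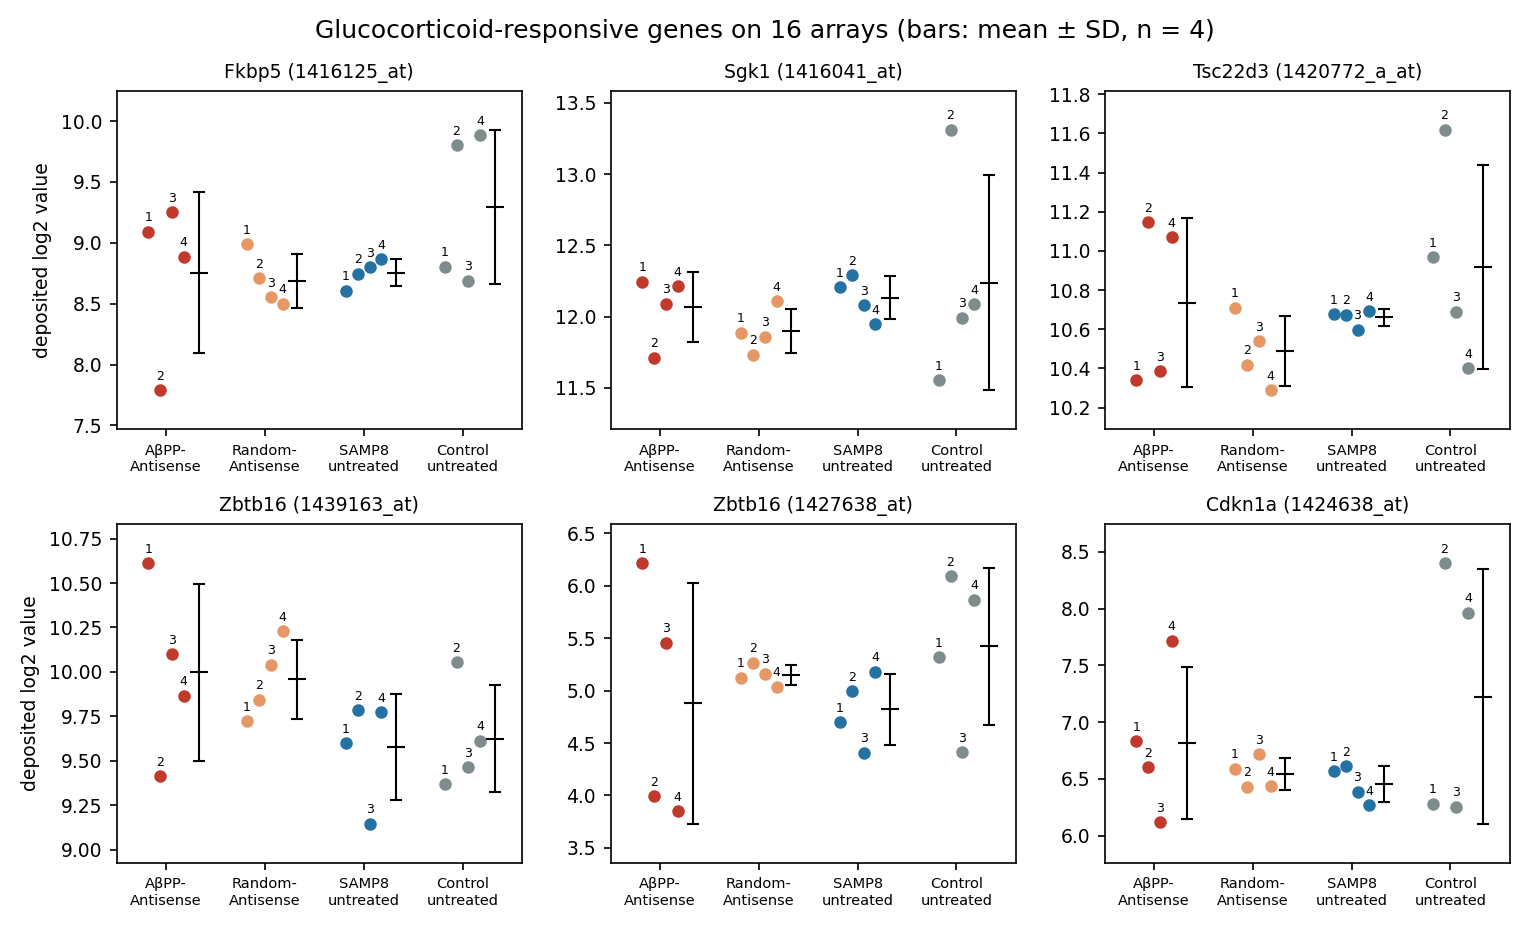
Deposited log2 values of 6 probe sets of the glucocorticoid-responsive genes on each array, by group, with replicate numbers and bars for mean ± SD (n = 4). Single mice carry the spread: Control 2 is at 13.31 for Sgk1 and 8.40 for Cdkn1a, and Control 2 and 4 are at 9.80 and 9.88 for Fkbp5.

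Non-overlap of groups was counted for all members. Between AβPP-Antisense and Random-Antisense 3 of 19 probe sets did not overlap (7.58% of all tested), Mt2 above and 2 of Nr3c1 below. Between AβPP-Antisense and untreated SAMP8 it was 2 (7.96%), 1 of Nr3c1 and 1 of Tsc22d3, both below. Between Random-Antisense and untreated SAMP8 it was 2 (8.1%), Mt2 and 1 of Tsc22d3, both below. On 19 probe sets those shares come to 1 or 2, so counts of 2 and 3 lie close to the background. With 1 probe set a gene, 8 of 10 genes were higher in AβPP-Antisense than in Random-Antisense, with a median of 0.12 log2, while 6512 of 11465 genes were higher over all genes, with a median of 0.04. The other comparisons gave 7 of 10 higher in AβPP-Antisense than in untreated SAMP8 (median 0.13), 4 of 10 in Random-Antisense than in untreated SAMP8 (median −0.10) and 4 of 10 in untreated SAMP8 than in Control (median −0.08). Over all genes those medians were 0.03, −0.01 and 0.04. These counts depend on AβPP-Antisense 4 and Control 4. Without both, signs turned against untreated SAMP8 for Mt3 (−0.02), Fkbp5 (−0.04), Tsc22d3 (−0.04) and Nr3c2 (0.12) in AβPP-Antisense. Against Random-Antisense they turned for Mt3 (−0.15), Cdkn1a (−0.02) and Nr3c2 (0.25). In untreated SAMP8 minus Control the sign turned for Nr3c1 (−0.03).

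No tested gene of the wider corticosteroid pathway passed the threshold. Of 38 listed genes (further targets, chaperones, 11β-hydroxysteroid dehydrogenases, coregulators and the corticotropin-releasing hormone system) 30 were tested, and 0 rose and 0 fell in any of the 4 comparisons, beside 14 and 12 of 11465 genes in untreated SAMP8 against Control and 1 and 2 in AβPP-Antisense against Random-Antisense. The median difference was 0.05 in AβPP-Antisense against Random-Antisense, with 17 of 30 higher. Those of smallest p there were Fkbp4, an Hsp90 co-chaperone of steroid receptors (−0.39, SE 0.14, adjusted p 0.307 in limma), Cdkn1c, a cell cycle inhibitor (−0.53, SE 0.23, adjusted p 0.382), and Hsd11b1, which regenerates active glucocorticoid (0.43, SE 0.19, adjusted p 0.384). In untreated SAMP8 against Control the median was 0.06, with 16 of 30 higher. The 3 of smallest p were Sult1a1, a sulfotransferase (−1.08, SE 0.36, adjusted p 0.65 in limma), Dusp1, a MAP kinase phosphatase (0.84, SE 0.40, adjusted p 0.999), and Per1, a clock gene (0.56, SE 0.31, adjusted p 0.999, and 0.32 without Control 4). Dusp1 and Per1 are also immediate-early genes. Of 14 tested immediate-early genes 12 were higher in untreated SAMP8 than in Control (median 0.56), with 0 past the threshold. Over all genes 6898 of 11465 were higher there (median 0.04). The immediate-early score differed by 0.70, with an exact permutation p of 0.171. The pathway's score was highest on Control 2 (0.27), the mouse with the highest Sgk1, Tsc22d3 and Cdkn1a. It was lowest on AβPP-Antisense 2 (−0.22), the mouse with the lowest Fkbp5 but also with the highest Mt1 and Mt2. Control 4, the mouse with the highest Fkbp5, had a score of −0.06, and AβPP-Antisense 4 had 0.16. The score therefore did not follow the members as a whole.

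Genes of zinc and copper handling were given beside the metallothioneins. Of 30 listed genes 27 were tested, and 0 rose and 0 fell in any comparison. In AβPP-Antisense against Random-Antisense 19 of 27 were higher, with a median of 0.13 log2, and their score averaged 0.05 ± 0.04 in AβPP-Antisense and −0.04 ± 0.03 in Random-Antisense (SD, n = 4 each, exact permutation p 0.0571, not adjusted for the number of lists). Slc30a1, the plasma membrane zinc exporter and like Mt1 and Mt2 a target of MTF1, differed by 0.29 (SE 0.11, adjusted p 0.335 in limma). It read 9.42, 9.08, 9.44 and 9.48 log2 in AβPP-Antisense and 8.93, 9.21, 9.09 and 9.04 in Random-Antisense. AβPP-Antisense 2, the array with the highest Mt1 and Mt2, was the lowest of its group for Slc30a1. Mt1 and Mt2 themselves ordered the remaining arrays of that group differently, and the part of MTF1 in these values was not tested. Slc30a4 (−0.26, SE 0.12, adjusted p 0.385 in limma) and Slc39a10 (−0.35, SE 0.16, adjusted p 0.407, and −0.18 without AβPP-Antisense 4), 2 further zinc transporters, had lower means. In untreated SAMP8 against Control the 3 of smallest p were Slc30a4 (0.23, SE 0.12), Slc30a1 (0.22, SE 0.11) and Mtf1 (0.48, SE 0.28), each with an adjusted p of 0.999 in limma. Mtf1 codes for the metal-responsive factor itself, and its lowest array was Control 4 (5.70), without which its difference was 0.17.

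Of 21 genes of the p53 pathway, listed beside Cdkn1a, 16 were tested, with 0 past the threshold in any comparison. In AβPP-Antisense against Random-Antisense the median was −0.06 and 7 of 16 were higher. The p53 score differed by −0.09 (exact permutation p 0.314), and by −0.16 without AβPP-Antisense 4 and Control 4 (exact permutation p 0.0286, the smallest possible). Gadd45a, a growth arrest gene, differed by −0.77 (SE 0.23, adjusted p 0.221 in limma), Cdkn1b by −0.51 (SE 0.16, adjusted p 0.234) and Ei24 by −0.19 (SE 0.10, adjusted p 0.454), all 3 with the AβPP-Antisense arrays wholly below. They were picked as the 3 of smallest p on the list, which favours such separation, and 7.58% of all tested probe sets had no overlap there, in either direction. In untreated SAMP8 against Control the 3 of smallest p were Pmaip1 (−1.12, SE 0.50, and −0.39 without Control 4), Tigar (0.27, SE 0.12) and Ccng1 (0.17, SE 0.14), each with an adjusted p of 0.999 in limma. Cdkn1a, at −0.77 in that comparison, thus stood beside p53 targets of both signs.

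Variation between mice was then compared over all 16 arrays for the 45 pairs of the 10 genes, with 1 probe set a gene. Mt1 and Mt2 had the highest Pearson correlation (r = 0.794, permutation p 0.00026, adjusted over the 45 pairs 0.0117; Spearman's rho 0.732, permutation p 0.00169, adjusted p 0.038). It was 0.677 without the 2 arrays farthest from the median of Mt1, 0.683 without the 2 farthest on Mt2, and 0.543 for deviations from the group means, which was not tested separately. Mt2 and Nr3c1 ran in opposite directions (r = −0.663, permutation p 0.00416, adjusted p 0.0936; rho −0.803, permutation p 0.00048, adjusted p 0.0216), with r = −0.62 without the 2 arrays farthest on Mt2, −0.846 without the 2 farthest on Nr3c1, and −0.442 for deviations from group means. Mt3 did not follow Mt2 (r = −0.0779, permutation p 0.774; rho −0.0294, permutation p 0.916). With Mt1 it had r = 0.347 (permutation p 0.186, adjusted p 0.399). For deviations from group means Mt1 and Mt3 had r = 0.531, near the 0.543 of Mt1 and Mt2, and this was not tested separately. By r 1 pair of 45 and by rho 2 pairs had an adjusted p under 0.05. The permutations moved arrays across the groups, so these p-values also reflect differences between groups, such as those of Mt2 and Nr3c1 above. The Nr3c1 values were those of 1460303_at alone, and the r of its deviations from group means was not tested either.

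Among the glucocorticoid-responsive genes the correlations moved with the arrays left out, which were the 2 farthest from the median of either gene. Sgk1 and Cdkn1a had r = 0.688 (permutation p 0.00672, adjusted p 0.101; rho 0.453, adjusted p 0.381), r = 0.273 without Control 1 and Control 2, and r = 0.358 without Control 2 and Control 4. Fkbp5 and Cdkn1a had r = 0.625 (permutation p 0.011, adjusted p 0.108; rho 0.265, adjusted p 0.659), r = 0.624 without Control 4 and AβPP-Antisense 2, and r = −0.0238 without Control 2 and Control 4. Fkbp5 and Sgk1 had r = 0.583 (permutation p 0.0309, adjusted p 0.174; rho 0.376, adjusted p 0.533), r = 0.72 without Control 4 and AβPP-Antisense 2, and r = 0.414 without Control 1 and Control 2. Fkbp5 and Tsc22d3 had r = 0.049 (permutation p 0.852; rho 0.0118), r = 0.602 without Control 4 and AβPP-Antisense 2, and r = −0.218 without Control 2 and AβPP-Antisense 2.

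The genes whose pattern over the 16 arrays was most like that of Mt2, among 11464 other genes, were Rapgef6 (r = 0.809), Mt1 (0.794), Rpl22l1 (0.744), Gas5 (0.743) and Reps1 (0.739). For Fkbp5 they were Socs2 (0.872), Eif2s3y (0.855), Tctex1d2 (0.848), Ddit4 (0.845) and Cebpd (0.838), of which Ddit4 and Cebpd are on the list of corticosteroid targets. Ddit4 read 8.90, 8.05, 9.18 and 9.03 log2 in AβPP-Antisense and 8.90, 9.53, 9.06 and 9.90 in Control. Like Fkbp5 it was lowest on AβPP-Antisense 2 and highest on Control 4 and Control 2. These are descriptions of the likeness of values, picked as the highest of many.

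Control mice and AβPP-Antisense mice held most of the extremes. AβPP-Antisense 4 was the highest of the 16 arrays for 5 of the 19 probe sets and the lowest for 5. Control 2 was the highest for 4, Control 4 was the highest for 2 and the lowest for 3, and AβPP-Antisense 2 was the highest for 2 and the lowest for 3. Untreated SAMP8 arrays were the highest or the lowest of the 16 for 2 probe sets in all, both on array 3, and Random-Antisense arrays for 3. Extremes were counted for the member probe sets only. AβPP-Antisense 4 and Control 4 also stood apart over all probe sets (median correlations 0.968 and 0.957), so the counts are not a trait of these genes. On these probe sets the groups differed in how far their 4 mice lay apart, which the shared spread of the fit does not follow. The values of each mouse are given above for that reason.

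**Figure D5:**
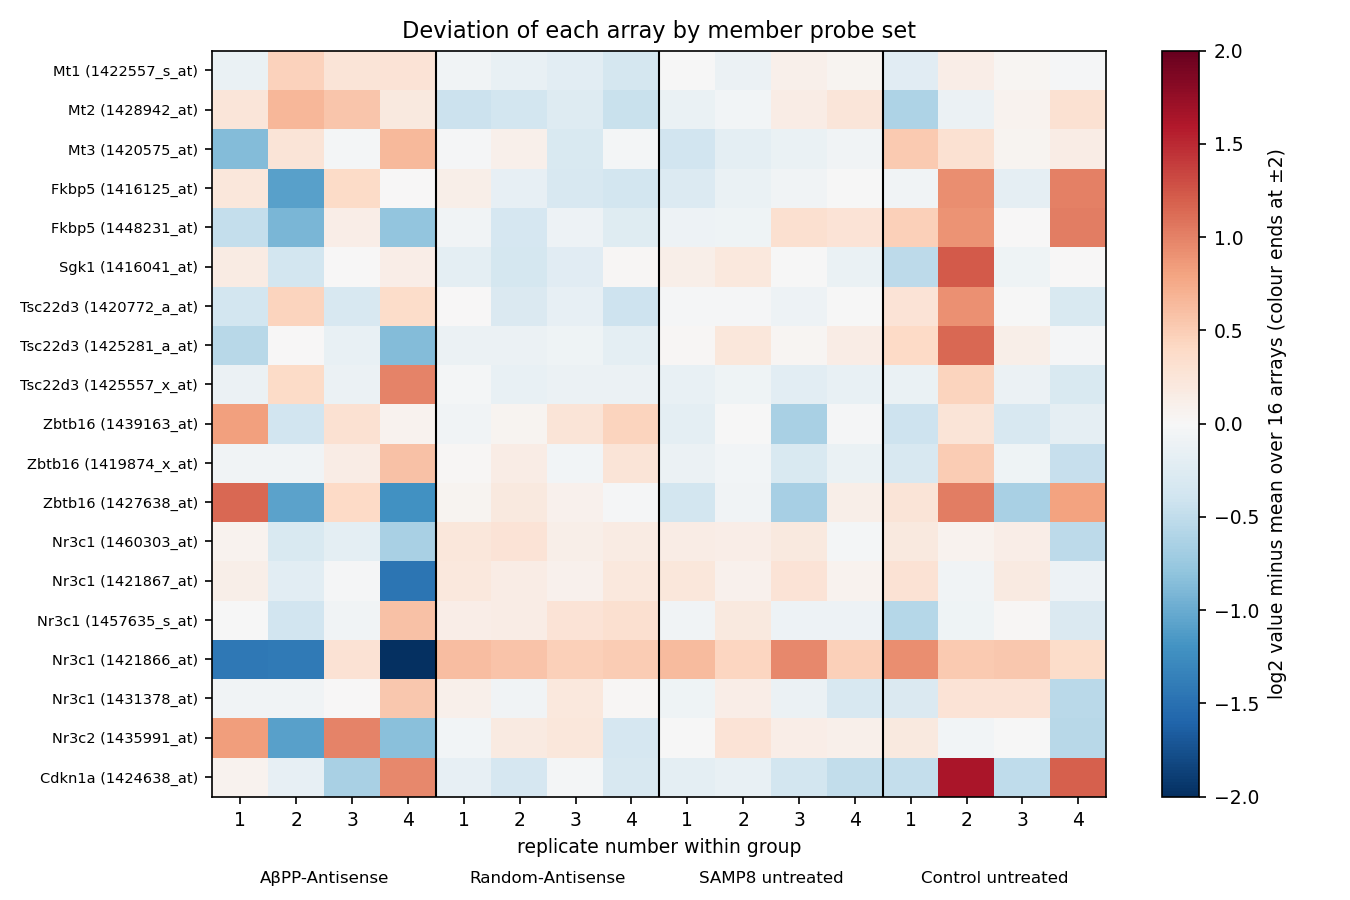
Deviation of each array from the mean of 16 arrays, in log2 units, for the 19 tested probe sets (rows) and the 4 groups of 4 arrays (columns), with colour ending at ±2. The columns of Control 2, Control 4, AβPP-Antisense 2 and AβPP-Antisense 4 hold most of the strong colours, and the rows of Mt1 and Mt2 are red in AβPP-Antisense, except Mt1 on array 1, and blue in Random-Antisense.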

How the data were processed

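Each array carried biotinylated cRNA from 4 µg of total RNA of 1 hippocampus, per the labels' protocols. The deposited table holds log2 values, and the submitters' processing notes name GCRMA, a method that subtracts background, gives all arrays the same distribution by quantiles and sums the probes of a set into a single level. No GCRMA version was stated in the sources used here. Scanned intensities were not used here. All 16 columns of the table of 45101 probe sets were used. The deposited values carry no read depth, and the number of arrays limits the precision. A change in most transcripts at once would be removed by the quantile step.

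From these values, 64 control probe sets were removed and 23905 of 45037 probe sets passed a filter (value over 4 log2, on 4 or more arrays) and entered limma 3.58.1 (R 4.3.3), with 4 groups of 4 arrays in 1 fit (12 residual degrees of freedom), 4 contrasts, a moderated F test and Benjamini-Hochberg adjustment over all tested probe sets, at 0.05. The brightest tested probe set stands for a gene where 1 value a gene is used. Exact permutation tests were two-sided over 70 assignments (smallest p 0.0286), and correlations used 100000 permutations in Python 3.11.15. Replicates are separate mice, per the labels. The fit was tested on simulated data. Promoter windows and gene coordinates are RefSeq's (GRCm38.p6), and gene names are those of GEO's platform annotation. Text names all 10 members on all their probe sets, the 3 genes of smallest p per pathway list in 2 comparisons, and the 5 genes most like Mt2 and Fkbp5. Replicate numbers do not pair the mice: deviations of same-numbered arrays correlated at −0.275 to 0.236. The members, lists and tests were chosen with earlier results of these data known. Alternatives varied the filter, the arrays used, the variance prior, array weights, between-array scaling, an RNA integrity covariate, the replicate block and the group of Random-Antisense 1.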

Additional observations from a re-analysis of the deposited data

Results flagged for a closer look

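In the 76 sets of 4 arrays tested (19 probe sets in 4 groups), 2 arrays lay far from the other 3 of their group by Dixon's test, and chance flags about 1 in 20 sets. For the Nr3c1 probe set 1431378_at, AβPP-Antisense 4 read 4.39 log2 and the nearest other array of its group read 3.86, a gap of 0.873 of the group's range. For the Nr3c1 probe set 1457635_s_at, untreated SAMP8 2 read 10.32 log2 and the nearest other array of its group read 10.05, a gap of 0.89 of the range. Both values belong to the glucocorticoid receptor, and neither probe set differed between groups past the threshold in limma.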

How the results depend on the processing

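Over 76 member results (19 probe sets in 4 comparisons) and 2052 alternative values, 2046 stayed on the same side of the threshold and in the same direction where called, 6 passed the threshold only under an alternative, and 0 called results changed sign. A sign changed in 103 values that were called in neither setting. The count of member probe sets called, 0 in each comparison, was 0 to 2 for AβPP-Antisense minus Random-Antisense, AβPP-Antisense minus untreated SAMP8 and the F test when 1 array was left out (2 without AβPP-Antisense 3), and 1 in each of these without both AβPP-Antisense 4 and Control 4. For AβPP-Antisense minus untreated SAMP8 the 2 include the dim Fkbp5 probe set 1448231_at, with the limit on its filter given above. Probe sets called in all were 86 in untreated SAMP8 minus Control, with 37 from only the 8 arrays compared, 295 with array weights and 54 to 115 leaving out 1 array. For AβPP-Antisense minus Random-Antisense they were 20, with 13 at a filter of 6 log2, 0 from only the 8 arrays compared, 199 without both arrays, 35 with array weights, 13 with Random-Antisense 1 as untreated, 59 with the β-actin covariate, and 11 to 896 leaving out 1 array. For AβPP-Antisense minus untreated SAMP8 they were 69, with 31 without a filter, 5 from only the 8 arrays compared, 401 without both arrays and 16 to 1286 leaving out 1 array. Random-Antisense minus untreated SAMP8 had 0, and 19 with array weights. The F test called 203, with 480 without both arrays, 564 with array weights and 117 to 963 leaving out 1 array. The highest counts leaving out 1 array were those without AβPP-Antisense 3 in the last 2 AβPP-Antisense comparisons and the F test. With the replicate number as a block, 71, 17, 0, 63 and 143 probe sets were called in untreated SAMP8 minus Control, AβPP-Antisense minus Random-Antisense, Random-Antisense minus untreated SAMP8, AβPP-Antisense minus untreated SAMP8 and the F test, and 0 members. Of 24 same-numbered pairs of arrays the median correlation of deviations was 0.0366, against −0.00774 over 72 other pairs, and 5 of 16 arrays correlated best with their own number. The cause of these shifts was not tested. With 4 mice a group, AβPP-Antisense minus Random-Antisense differences of over 3 SEs (0.79 with an SE of 0.18 for Mt2, −2.31 with an SE of 0.65 for Nr3c1) did not pass the adjusted threshold, so differences of fewer SEs were not detectable there.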
